A study of Rattus norvegicus with 132 samples.

Results

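Aqp2, Scnn1a and Slc5a3 were followed across 4 groups and 4 areas of the rat kidney. They are the rows of these names in a table of 9271 genes, so that 3 of 9271 genes are described, and they were chosen with earlier results of these data known. Expression was measured by GeoMx digital spatial profiling, in which light frees the barcodes of hybridised probes inside a selected region of interest (ROI) and sequencing counts them. The 132 ROIs were picked by hand in formalin-fixed, paraffin-embedded kidney sections of 3 rats per group. The probes were those of the mouse whole-transcriptome set, hybridised to rat tissue.

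The groups were RM, HS, RM-HS (both together) and Sham. RM and HS are abbreviations that the labels leave unexplained. In studies of kidney injury after trauma they usually mean rhabdomyolysis, in which muscle breaks down, and hemorrhagic shock, but the labels do not state this. Strain, sex, age and time after injury are not given in the sources used here. The areas were cortex (C), corticomedullary junction (CMJ), glomeruli (G) and medulla (M). RM had 9 ROIs in C, 8 in CMJ, 9 in G and 9 in M. HS had 9, 9, 5 and 6 in the same order of areas, RM-HS had 9, 8, 6 and 9, and Sham had 9 in each.

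Water is taken up from the collecting duct through Aqp2 (aquaporin 2), a channel of principal cells that vasopressin moves to the apical membrane and whose transcription it raises through cAMP. Scnn1a is the alpha subunit of the epithelial sodium channel, through which the same cells take up sodium under the control of aldosterone. Slc5a3 (SMIT1) carries myo-inositol into the cell together with sodium. Inositol is one of the small organic osmolytes with which medullary cells balance the salt and urea around them, and in hypertonic medium Slc5a3 is switched on by the transcription factor Nfat5, which binds tonicity elements.

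The rat genes lie on 3 chromosomes of the RefSeq annotation (assembly GRCr8, 1-based): Aqp2 at chr7:132590286-132595321, Scnn1a at chr4:159809187-159832409 and Slc5a3 at chr11:44799787-44802233. RefSeq promoter windows, 250 bases before to 50 after the gene start on the plus strand of GRCr8, were matched for 2 of the 3 genes, Aqp2 (chr7:132590036-132590335) and Slc5a3 (chr11:44799537-44799836), and not for Scnn1a. Both are shown, since these 2 genes differed from Sham in opposite directions. Capitals mark TGACG, the core of the cAMP response element.
Aqp2: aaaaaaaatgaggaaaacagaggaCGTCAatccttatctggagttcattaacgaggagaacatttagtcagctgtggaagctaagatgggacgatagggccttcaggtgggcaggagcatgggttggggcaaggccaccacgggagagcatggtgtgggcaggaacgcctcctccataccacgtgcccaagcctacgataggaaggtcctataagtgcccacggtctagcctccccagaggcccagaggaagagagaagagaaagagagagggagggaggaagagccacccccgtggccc
Slc5a3: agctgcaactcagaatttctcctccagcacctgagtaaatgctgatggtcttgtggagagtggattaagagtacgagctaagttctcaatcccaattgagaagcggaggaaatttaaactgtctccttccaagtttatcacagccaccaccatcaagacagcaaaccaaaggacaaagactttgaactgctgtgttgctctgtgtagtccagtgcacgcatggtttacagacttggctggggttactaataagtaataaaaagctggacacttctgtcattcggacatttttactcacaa
The windows were searched on both strands for TGACG, for the full cAMP response element TGACGTCA, which contains it, and for TGGAAA, the core of the tonicity element. The Aqp2 window held TGACG once, on the minus strand, its first plus-strand base at position -226 from the start. None of the 3 motifs was found in the Slc5a3 window, and neither TGACGTCA nor TGGAAA in that of Aqp2. Among 33469 promoter windows of the same length, 21.2% held TGACG, 1.83% held TGACGTCA and 22.7% held TGGAAA. A match is a stretch of letters and was not tested as a binding site. The Slc5a3 entry spans 2447 bases, and whether its start is where transcription begins was not checked. Sequence outside the windows was not searched, so a motif not found here may lie elsewhere.

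Values are the deposited signal, normalized by the authors so that the upper quartile (Q3) of every ROI was 58.2. Whole reads could be recovered from them and ranged between 17894 and 2305964 per ROI, with a median of 93104 in G, 819487 in C, 1144390 in CMJ and 1309721 in M. Behind the members stood 1 to 37 reads per gene and ROI in G, 22 to 1596 in C, 31 to 1633 in CMJ and 15 to 5165 in M. Aqp2 was over 2 times the negative probe in 126 of the 132 ROIs, Scnn1a in 116 and Slc5a3 in 127. Well positions in the labels were grouped into 3 runs of wells per group. All HS ROIs stood on plate E with Sham run 3, while RM, RM-HS and the other Sham runs stood on plate C (1 RM ROI in G, on plate A, was left out of the fit). Every fitted difference of HS from Sham thus rests on Sham run 3 through the plate term. The signal ranges of HS are set beside Sham ROIs of both plates. No label links an ROI to its animal, so that ROIs of a group and area share animals and every p-value given over ROIs is too small. With each run and area reduced to 1 mean, fewer comparisons passed the test, and those values are given beside the results. Where ROIs of a group lie wholly above or below Sham, the share of all genes that do so was not computed. Such statements describe these ROIs, which come from 3 runs per group, and are not tests. Fewer cells of a type and less RNA per cell cannot be told apart in ROIs.

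The label of the medulla was set beside markers of the thick ascending limb in Sham. Of 6 tested in limma, 4 were higher and 1 was lower in M than in C with an adjusted p under 0.05. Over all genes 11.7% passed that threshold. The log2 differences of the 6 ran from -0.63 to 4.26, with a median of 0.88. The highest was that of Slc12a1, at 4.26 ± 0.20 (SE, adjusted p = 9.72e-43).

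**Figure D1:**
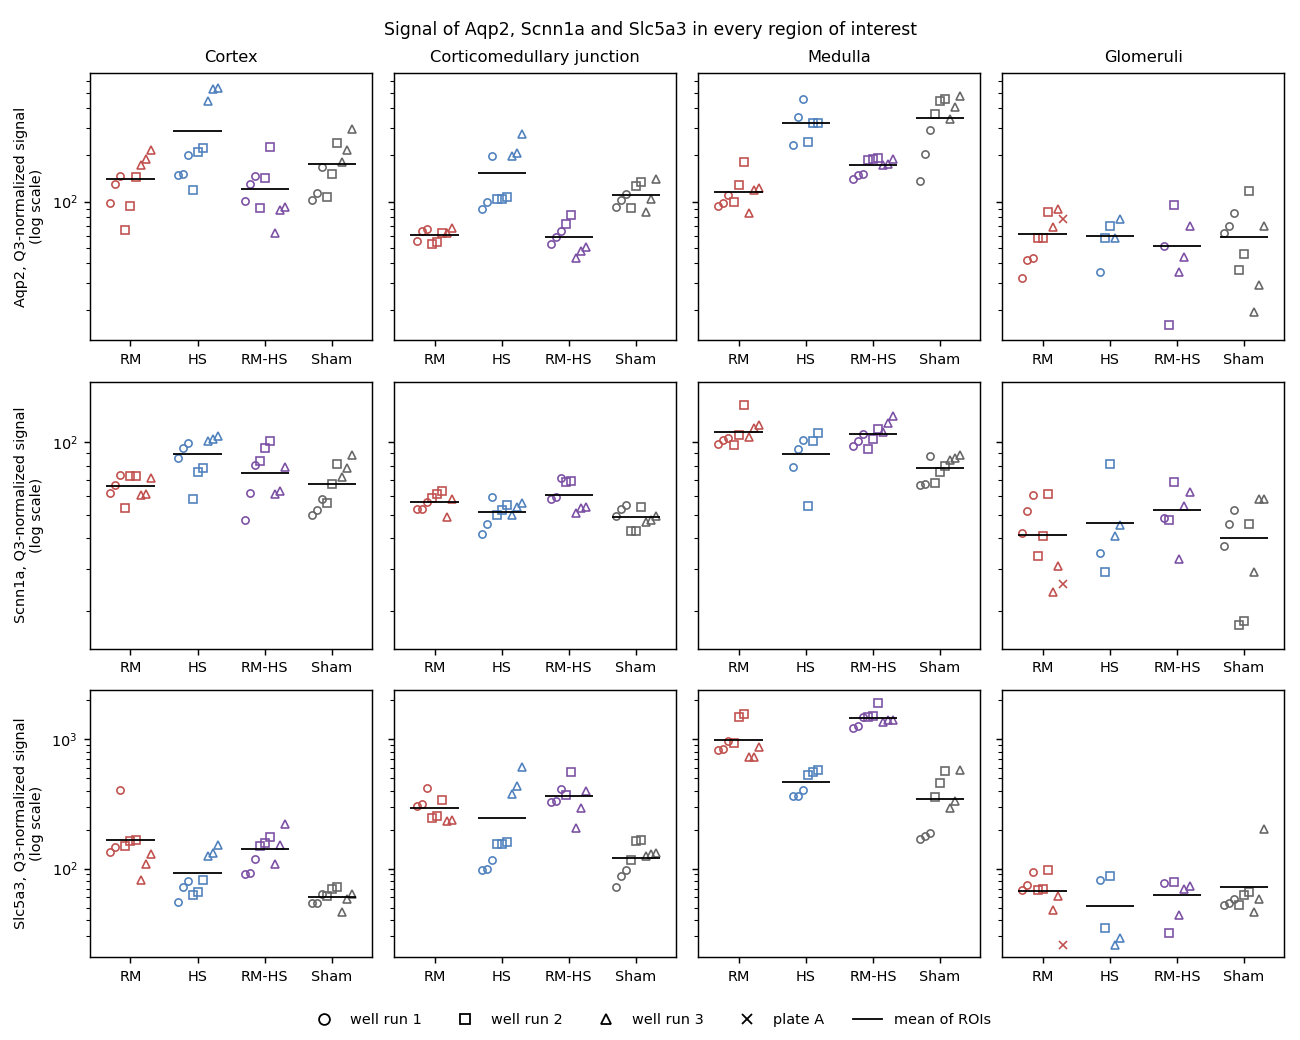
Q3-normalized signal (log scale) of Aqp2, Scnn1a and Slc5a3 in each ROI, by area (columns) and group (x axis, n = 5 to 9 ROIs), with the well run as the symbol and the mean as a line. In medulla Slc5a3 averaged 992 in RM and 1448 in RM-HS against 347 in Sham, and Aqp2 averaged 115 in RM and 171 in RM-HS against 348 in Sham.

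Aqp2 was highest in M and lowest in G of Sham kidneys. Its signal in Sham M ran between 135 and 481 with a median of 368, and in Sham C between 103 and 294 with a median of 167. Sham CMJ held 85.3 to 141 (median 105) and Sham G 19.4 to 116 (median 62.3). The ranges of neighbouring areas overlapped. In limma, with areas compared inside Sham, M lay 0.98 ± 0.22 above C on the log2(value + 1) scale (SE; adjusted p = 0.000360, where 11.7% of 8827 tested genes were called, that is, had an adjusted p under 0.05). G lay 1.63 below C (log2 difference -1.63 ± 0.22, adjusted p = 5.29e-10, 38.4% called), and CMJ against C was at -0.60 ± 0.22 (adjusted p = 0.0760, 7.91% called). The medullary call ended without Sham run 2 (0.76, adjusted p = 0.0652) and with run means (adjusted p = 0.0669).

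In medulla, Aqp2 was lower after RM. Its signal was 85.0 to 179 (median 110) in RM, 233 to 457 (median 321) in HS and 140 to 190 (median 175) in RM-HS, against 135 to 481 (median 368) in Sham. All 9 RM ROIs and all 9 RM-HS ROIs were below the Sham mean, and 8 RM ROIs were below every Sham ROI. The lowest Sham value came from run 1, which averaged 209, against 425 and 410 in runs 2 and 3. The fitted difference between RM and Sham was -1.50 ± 0.28 (log2, SE), a level 2.83-fold lower (adjusted p = 1.51e-05, 5.96% of genes called). The call held without any single well run (-1.92 to -1.22, adjusted p up to 0.0118) and with run means (adjusted p = 0.00979).

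RM-HS medulla was lower than Sham by a smaller margin. The difference was -0.91 ± 0.28 (adjusted p = 0.0331, 4.5% called), and it lost its call without RM-HS run 1 or 3 or Sham run 2 or 3 (-1.33 to -0.63 over the 12 runs left out, adjusted p up to 0.594) and with run means (adjusted p = 0.381). HS against Sham was at 0.09 (95% interval -0.58 to 0.77, adjusted p = 0.996, 0.374% called). HS medulla held ROIs of runs 1 and 2, with none of run 3.

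At the junction, Aqp2 had 52.9 to 68.0 (median 62.7) in RM, 89.3 to 273 (median 107) in HS and 43.2 to 81.6 (median 56.2) in RM-HS, against 85.3 to 141 (median 105) in Sham. Every RM and every RM-HS ROI was below every Sham ROI. On the ratio to the negative probe the lowest Sham value was 3.59. RM reached 3.26 at most, and RM-HS overlapped Sham with a highest ratio of 3.69. RM-HS differed from Sham by -0.86 ± 0.28 (adjusted p = 0.0473, 6.15% called) and RM by -0.78 ± 0.28 (adjusted p = 0.0938, 5.64% called). The RM-HS call ended when any of 7 runs was left out (RM runs 1 to 3, RM-HS runs 1 and 3, Sham runs 1 and 2; adjusted p up to 0.458) and with run means (adjusted p = 0.382). HS was at 0.34 (adjusted p = 0.9997, 0.283% called), or 0.013 without HS run 3.

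In cortex no injury passed the test for Aqp2. The signal was 65.7 to 215 (median 144) in RM, 119 to 540 (median 208) in HS and 62.3 to 225 (median 101) in RM-HS, against 103 to 294 (median 167) in Sham. The groups overlapped. HS run 3 stood apart, with a mean of 505 against 167 and 183 in HS runs 1 and 2. Differences from Sham were -0.30 (adjusted p = 0.701, 5.49% called) for RM, 0.53 (adjusted p = 0.9999, 0.0793% called) for HS and -0.52 (adjusted p = 0.474, 3.78% called) for RM-HS. Without HS run 3 the HS value was 0.014. In glomeruli, with 1 to 28 reads of Aqp2 per ROI, group means lay between 51.7 and 61.6, and the differences of 0.15 for RM (12.8% called), 0.06 for HS (9.52% called) and -0.17 for RM-HS (6.62% called) had adjusted p of 0.778, 0.940 and 0.803.

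Averaged over areas, Aqp2 differed from Sham by -0.61 ± 0.20 in RM (adjusted p = 0.0430, 8.3% called) and by -0.61 ± 0.21 in RM-HS (adjusted p = 0.0498, 6.83% called), both just past the threshold. Leaving out single runs ended the RM call in 6 of 12 cases (RM runs 1 and 2, RM-HS runs 1 and 3, Sham runs 1 and 2, adjusted p up to 0.397) and the RM-HS call in 8 of 12 (all RM and RM-HS runs, Sham runs 1 and 2, adjusted p up to 0.481). Run means ended both (adjusted p = 0.195 and 0.235). HS was at 0.26 (95% interval -0.26 to 0.77, adjusted p = 0.999, 0.17% called). The RM difference was not the same in all areas (F test, adjusted p = 0.000174, 9.72% of genes called; 0.123 with run means), while the F tests of HS (adjusted p = 0.652, 13.6% called) and RM-HS (adjusted p = 0.372, 7.51% called) did not pass. In RM, M against C was at -0.22 (adjusted p = 0.622, 14.7% called), in HS at 0.54 (adjusted p = 0.154, 11.5% called) and in RM-HS at 0.59 (adjusted p = 0.0593, 10.9% called).

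By signal, Scnn1a was highest in M and C of Sham kidneys. In Sham ROIs its signal was 66.5 to 88.3 (median 79.5) in M, 42.9 to 54.7 (median 49.6) in CMJ and 17.4 to 58.2 (median 45.7) in G, against 49.99 to 88.4 (median 67.2) in C. M and C overlapped and did not differ beyond their spread (0.23 ± 0.14, adjusted p = 0.327). G (-0.82 ± 0.14, adjusted p = 1.39e-06) and CMJ (-0.42 ± 0.14, adjusted p = 0.0401) were lower than C. The CMJ call ended without RM run 1 or Sham run 2 or 3 (-0.62 to -0.28 over all runs left out, adjusted p up to 0.606) and with run means (adjusted p = 0.357). The negative probe of Sham also differed by area, with medians of 27.6 in C, 23.3 in CMJ, 17.3 in G and 19.2 in M. Median ratios of Scnn1a to the negative probe were 2.20 in C, 2.20 in CMJ, 2.67 in G and 4.07 in M. On that scale C was not above CMJ or G.

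In medulla every RM and every RM-HS ROI had more Scnn1a signal than every Sham ROI. The signal was 97.2 to 143 (median 105) in RM, 54.5 to 109 (median 97.2) in HS and 94.0 to 128 (median 108) in RM-HS, against 66.5 to 88.3 (median 79.5) in Sham. HS spanned the Sham range on both sides. On the ratio to the negative probe all groups overlapped, with medians of 6.37 in RM, 4.93 in HS and 4.85 in RM-HS against 4.07 in Sham. The highest Sham ratio was 5.72, and the lowest ratios were 4.11 in RM and 4.07 in RM-HS. RM was 0.58 ± 0.18 above Sham (adjusted p = 0.0314), RM-HS was at 0.56 ± 0.18 (adjusted p = 0.0511) and HS at 0.03 (95% interval -0.41 to 0.46, adjusted p = 0.996). The RM estimate stayed between 0.54 and 0.63 without single runs, but its call ended when any 1 of the RM or Sham runs was left out (adjusted p up to 0.151), without the plate term (0.49), with the negative probe subtracted (0.71) and with run means (adjusted p = 0.222).

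Outside medulla no Scnn1a difference from Sham was called. At the junction the signal was 49.1 to 62.8 (median 57.4) in RM, 41.9 to 59.2 (median 52.2) in HS and 50.8 to 71.2 (median 58.8) in RM-HS, against 42.9 to 54.7 (median 49.6) in Sham, with 5 of 8 ROIs of RM and 5 of 8 of RM-HS above all Sham ROIs. Differences there were 0.28 for RM and 0.39 for RM-HS (adjusted p = 0.486 and 0.279). In cortex the differences were 0.08 for RM, 0.23 for HS and 0.23 for RM-HS, and in glomeruli 0.23, 0.05 and 0.54. The value of RM-HS glomeruli had an adjusted p of 0.0719 and rested on 9 to 16 reads per ROI, against 1 to 11 in Sham.

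Averaged over areas, Scnn1a was 0.43 ± 0.13 higher in RM-HS than in Sham (adjusted p = 0.0274), a 1.35-fold difference. The call ended without RM-HS run 2 or 3 or Sham run 1 or 2 (0.35 to 0.51 over all runs left out, adjusted p up to 0.295), without the plate term (0.34) and with run means (adjusted p = 0.103). RM was at 0.29 ± 0.13 (adjusted p = 0.191) and HS at 0.05 ± 0.17 (adjusted p = 0.999). No F test found that an injury difference of Scnn1a varied between areas (adjusted p of 0.348 for RM, 0.629 for HS and 0.704 for RM-HS). M exceeded C by 0.73 ± 0.14 in RM (adjusted p = 1.47e-05) and by 0.56 ± 0.14 in RM-HS (adjusted p = 0.00180), the second without a call once RM-HS run 1 or 3 was left out (adjusted p up to 0.143) or run means were used (0.0673), and M against C was at 0.03 in HS (adjusted p = 0.939).

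Of the 3 genes, Slc5a3 had the largest difference between M and C. In Sham its signal was 169 to 577 (median 333) in M, 72.6 to 167 (median 124) in CMJ and 46.5 to 204 (median 58.2) in G, against 46.0 to 72.5 (median 61.8) in C. All M and CMJ ROIs of Sham were above the highest C ROI. M was 2.38 ± 0.21 above C (adjusted p = 6.45e-19), CMJ 0.96 ± 0.21 above C (adjusted p = 0.000291, but 0.169 with run means), and G against C was at 0.11 (adjusted p = 0.700). After injury M also exceeded C, by 2.67 ± 0.21 in RM, 2.53 ± 0.24 in HS and 3.40 ± 0.21 in RM-HS (adjusted p = 8.05e-23, 4.08e-17 and 3.72e-31). G, which was at 0.11 against C in Sham, was lower than C after each injury. The difference was -1.09 ± 0.22 in RM (adjusted p = 2.33e-05, 30.4% called), -0.97 ± 0.25 in HS (adjusted p = 0.000804, 42.3% called) and -1.19 ± 0.24 in RM-HS (adjusted p = 3.15e-05, 25.1% called). The HS call ended without HS run 3 (-0.14, adjusted p = 0.715) and with run means (0.0659), while the RM and RM-HS calls held under both.

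In medulla Slc5a3 was higher after RM and RM-HS. The signal was 724 to 1572 (median 872) in RM, 361 to 582 (median 464) in HS and 1210 to 1913 (median 1413) in RM-HS, against 169 to 577 (median 333) in Sham. Every RM and every RM-HS ROI was above every Sham ROI, whereas HS and Sham overlapped. On the ratio to the negative probe RM also overlapped Sham, with a lowest value of 32.9 against a highest of 36.3 in Sham. The lowest ratio of RM-HS was 51.0. Sham run 1 averaged 179, against 461 and 402 in runs 2 and 3. RM-HS was 2.27 ± 0.27 above Sham (log2, SE; 4.82-fold, adjusted p = 8.58e-12) and RM 1.68 ± 0.27 (3.20-fold, adjusted p = 4.27e-07). Both calls held without each single run (1.75 to 2.73 for RM-HS and 1.16 to 2.14 for RM) and with run means (adjusted p = 0.000340 and 0.0108). HS was at 0.52 (95% interval -0.13 to 1.17, adjusted p = 0.911).

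At the junction Slc5a3 had 234 to 422 (median 280) in RM, 98.3 to 606 (median 154) in HS and 205 to 557 (median 352) in RM-HS, against 72.6 to 167 (median 124) in Sham. RM and RM-HS lay wholly above Sham. RM-HS was 1.66 ± 0.27 above Sham (adjusted p = 8.25e-07, 0.00833 with run means) and RM 1.35 ± 0.27 (adjusted p = 0.000126). The RM call ended without Sham run 1 (1.003, adjusted p = 0.0961) and with run means (0.0728). HS run 3 averaged 473 against 105 and 156 in HS runs 1 and 2, and the HS difference of 0.58 (95% interval -0.03 to 1.19, adjusted p = 0.9997) was -0.040 when that run was left out.

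In cortex the signal was 81.6 to 405 (median 148) in RM, 55.5 to 153 (median 79.7) in HS and 90.5 to 221 (median 151) in RM-HS, against 46.0 to 72.5 (median 61.8) in Sham. RM and RM-HS again lay wholly above Sham, by 1.39 ± 0.27 (adjusted p = 5.15e-05) and 1.25 ± 0.27 (adjusted p = 0.000649). With run means neither was called (adjusted p = 0.0827 and 0.258), and the RM-HS call also ended without Sham run 1 (1.10, adjusted p = 0.116). HS was at 0.36 (adjusted p = 0.9999). Sham cortex was near the negative probe, with a median ratio of 2.35 and 7 of 9 ROIs over 2 times it. On that ratio RM and RM-HS overlapped Sham, with lowest values of 3.05 and 2.58 against a highest of 3.21 in Sham. Their median ratios were 5.27 and 5.47. In glomeruli no difference was called: RM at 0.19, HS at -0.72 (adjusted p = 0.164) and RM-HS at -0.05, with 3 to 37 reads of Slc5a3 per ROI. Without ROIs under 50000 reads the HS value was -1.71 and was called (adjusted p = 0.00182). The HS glomeruli left by that cut were of run 3 alone and held 4 and 5 reads of Slc5a3. All Sham glomeruli of plate E were removed by it, so that this value sets HS against glomeruli of another plate.

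Averaged over areas, Slc5a3 was 1.28 ± 0.20 higher in RM-HS (2.43-fold, adjusted p = 1.89e-07) and 1.15 ± 0.20 higher in RM (2.22-fold, adjusted p = 1.89e-06) than in Sham. Both calls held without each single run (adjusted p up to 0.0179 and 0.0477) and with run means (0.00204 and 0.00590). HS was at 0.18 (95% interval -0.31 to 0.68, adjusted p = 0.999). The difference depended on the area in all 3 injuries by the F test (adjusted p = 0.000474 for RM, 0.00922 for HS and 5.22e-08 for RM-HS), of which RM-HS stayed called with run means (0.0346) and RM and HS did not (0.359 and 0.446). The HS result also ended without HS run 3 (adjusted p = 0.542).

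**Figure D2:**
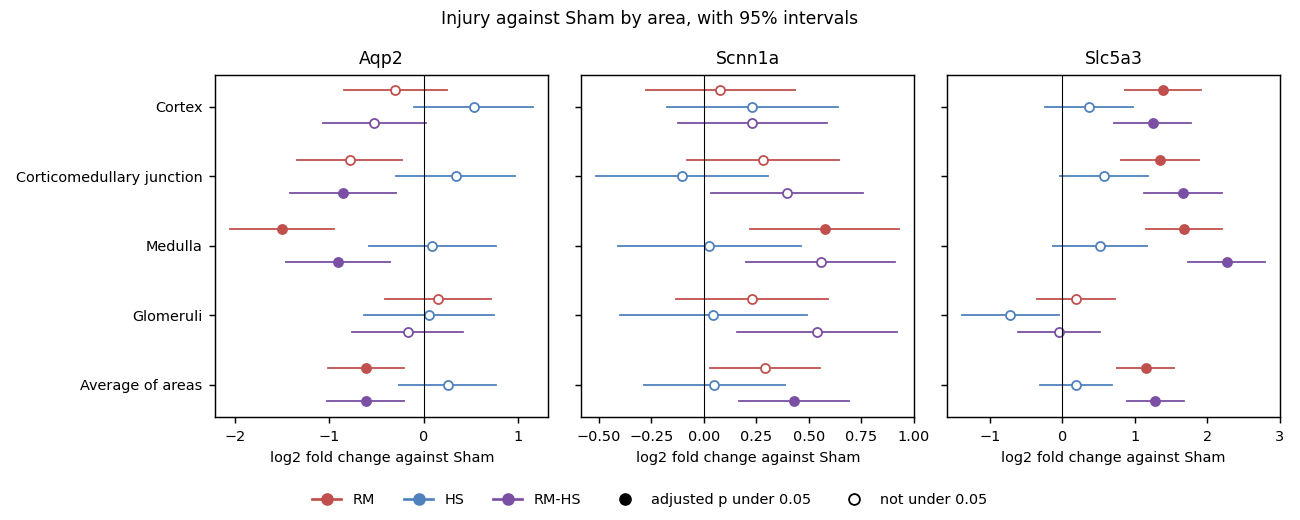
Log2 fold change of each injury against Sham (x axis) by area and averaged over areas, with 95% intervals from the limma fit and filled points for an adjusted p under 0.05. In medulla RM-HS reached 2.27 for Slc5a3, and RM reached -1.50 for Aqp2 and 0.58 for Scnn1a, while no HS point is filled.

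No difference between RM-HS and RM was called for the 3 genes. Averaged over areas RM-HS against RM was at -0.0054 for Aqp2 (95% interval -0.37 to 0.36), 0.14 for Scnn1a (-0.10 to 0.38) and 0.13 for Slc5a3 (-0.22 to 0.49), with adjusted p of 0.999 for each and 0.227% of genes called. In medulla the medians were 175 in RM-HS and 110 in RM for Aqp2 and 1413 in RM-HS and 872 in RM for Slc5a3. These differences of 0.59 ± 0.26 (adjusted p = 0.825) and 0.59 ± 0.25 (adjusted p = 0.753) did not pass, where 0.589% of genes were called. Their intervals reached 1.11 and 1.09, so that the test does not show the groups to be alike.

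RM-HS against HS sets plate C against plate E and rests on the plate term, which the 12 ROIs of a single Sham run on plate E support. Slc5a3 in medulla was 1.75 ± 0.38 higher in RM-HS than in HS (adjusted p = 0.00155, 1.98% called), with no overlap between 1210 to 1913 in RM-HS and 361 to 582 in HS. That call ended without Sham run 1 (adjusted p = 0.0899) and with run means (0.230). Aqp2 in medulla was at -1.002 ± 0.40 (adjusted p = 0.255), with all 9 RM-HS ROIs below all 6 HS ROIs, and Scnn1a was at 0.53 ± 0.26 (adjusted p = 0.455). Averaged over areas the differences were -0.87 ± 0.33, 0.38 ± 0.22 and 1.10 ± 0.32 for Aqp2, Scnn1a and Slc5a3 (adjusted p = 0.307, 0.797 and 0.0678, 1.09% called). The interaction of RM and HS, which asks whether RM-HS departs from the sum of the separate differences, was called for none of the members (-0.26 ± 0.32, 0.09 ± 0.21 and -0.05 ± 0.31, adjusted p of at least 0.997), against 0.125% of all genes.

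Over the 16 means of group and area, the genes most like each member by Pearson's r were Cldn8, Kcnq1 and Wnk4 for Aqp2 (r = 0.944, 0.934 and 0.930), St14, Arrdc1 and Sema4b for Scnn1a (0.919, 0.916 and 0.913) and Efna5, Kcnk1 and Medag for Slc5a3 (0.963, 0.953 and 0.944). Between members r was 0.701 for Aqp2 and Scnn1a, 0.400 for Aqp2 and Slc5a3 and 0.744 for Scnn1a and Slc5a3. The 16 means share areas, plates and the low depth of glomeruli, and the values are descriptions. They include the medullary mean of every group, so that a shared direction in medulla is partly built into the choice of these genes. Their adjusted p and calls are therefore no support for the members. Cldn8 is a tight-junction claudin and Wnk4 a kinase of the distal nephron that regulates salt transport. Beside the RM difference of -1.50 for Aqp2 in medulla, Cldn8 was at -0.16, Kcnq1 at -0.37 and Wnk4 at -0.67, and none was called (adjusted p = 0.794, 0.308 and 0.175). Of the genes like Slc5a3, Efna5 was 0.67 ± 0.19 higher in RM than in Sham medulla (adjusted p = 0.0140) and Medag 1.26 ± 0.25 higher in RM-HS (adjusted p = 8.62e-05). Efna5 in RM-HS (0.57, adjusted p = 0.0729) and Medag in RM (0.67, adjusted p = 0.103) were not called, and Kcnk1 was at 0.04 and 0.31 in RM and RM-HS and was not called. Of the genes like Scnn1a, St14, Arrdc1 and Sema4b were at 0.40, 0.41 and 0.32 in RM medulla (adjusted p = 0.322, 0.493 and 0.450) and at 0.46, 0.46 and 0.66 in RM-HS medulla (adjusted p = 0.238, 0.497 and 0.00848). The Sema4b call ended without RM-HS run 2 or Sham run 1 (adjusted p up to 0.302) and with run means (0.252). The Efna5 call ended with run means (0.255) and without RM run 1 or 2 or Sham run 1 or 2 (adjusted p up to 0.268), and the Medag call held under both (up to 0.0481).

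Of 20 listed genes for principal cell water and sodium handling, 9 were measured and tested. Averaged over areas, 1 rose and 0 fell in RM, 1 rose and 0 fell in HS, and 1 rose and 1 fell in RM-HS, with medians of -0.17, -0.08 and 0.0021 beside -0.06, -0.03 and -0.02 over all genes. Over all genes, 8.3% were called in RM, 0.17% in HS and 6.83% in RM-HS, so that 1 of 9 in RM is near the share of all genes. Nedd4l, a ubiquitin ligase that removes the epithelial sodium channel from the membrane, rose by 0.48 ± 0.14 in RM (adjusted p = 0.0162) and by 0.63 ± 0.15 in RM-HS (adjusted p = 0.00101). Adcy6, an adenylyl cyclase that makes cAMP in response to vasopressin, fell by 0.43 in RM-HS (-0.43 ± 0.12, adjusted p = 0.00721). Tsc22d3, a gene induced by glucocorticoids and aldosterone, rose by 1.51 ± 0.21 in HS (adjusted p = 3.53e-07). With run means the calls of Nedd4l in RM (adjusted p = 0.0862) and of Adcy6 (0.171) ended, while Nedd4l in RM-HS (0.0126) and Tsc22d3 (0.0417) kept theirs. The RM call of Nedd4l ended without any RM run or Sham run 1 or 2 (adjusted p up to 0.493), its RM-HS call without Sham run 1 (0.173) and the Adcy6 call without RM-HS run 2 or 3 or Sham run 1 or 2 (up to 0.137). Tsc22d3 was at 1.52 on plate E alone, without a call (adjusted p = 0.106), and lay between 0.64 and 1.78 with single runs left out, lowest without Sham run 3.

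In medulla 0 of the 9 rose and 2 fell in RM, 1 rose and 0 fell in HS (Tsc22d3, 1.52), and 0 rose and 2 fell in RM-HS, where 5.96%, 0.374% and 4.5% of all genes were called. The Tsc22d3 value was chosen for mention after it was seen, and its call ended with run means (adjusted p = 0.829), on plate E alone (0.727) and without Sham run 3 (0.69, adjusted p = 0.327). Adcy6 was at -0.54 in RM (adjusted p = 0.0152) and -0.61 in RM-HS (adjusted p = 0.00457). Tfcp2l1, a transcription factor of the collecting duct, was at -0.78 in RM (adjusted p = 0.00442) and -0.72 in RM-HS (adjusted p = 0.0146), and was chosen for mention after its values were seen. Of these 4 calls, that of Tfcp2l1 in RM held with run means (adjusted p = 0.0370), and those of Adcy6 in RM and RM-HS and Tfcp2l1 in RM-HS ended (0.362, 0.263 and 0.0832). Without Sham run 2 none of the 4 was called.

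Of 17 listed genes for osmolyte uptake and the response to tonicity, 9 were tested. Averaged over areas, 1 rose and 0 fell in RM, 0 rose and 0 fell in HS and 2 rose and 1 fell in RM-HS, with medians of 0.03, -0.26 and -0.02 beside the same medians and called shares over all genes as above. The 1 of 9 in RM is again near the 8.3% of all genes. Slc38a2, a sodium-coupled amino acid transporter, rose by 1.06 ± 0.15 in RM (adjusted p = 2.18e-09) and by 0.83 ± 0.15 in RM-HS (adjusted p = 5.83e-06). Gpx3, the secreted glutathione peroxidase, rose by 1.17 ± 0.27 in RM-HS (adjusted p = 0.00103), and Impa1, which frees inositol from its phosphate, fell by 0.48 (-0.48 ± 0.13, adjusted p = 0.00517). Slc38a2 stayed called in RM and RM-HS with run means and without each single run. The Gpx3 call ended with run means (adjusted p = 0.145) and without Sham run 1 (0.53, adjusted p = 0.923), and the Impa1 call without RM-HS run 3 or Sham run 1 or 2 (adjusted p up to 0.114). In HS the lowest p-values were those of Hspa4l (-0.36 ± 0.16, adjusted p = 0.854) and Nfat5 (0.38 ± 0.21, adjusted p = 0.934). In medulla, where Slc5a3 was highest, Slc38a2 was the list gene that rose in RM (1.30, adjusted p = 1.03e-07) and in RM-HS (0.74, adjusted p = 0.00963, lost without RM-HS run 3 or Sham run 1 and at 0.224 with run means). Nfat5 itself stood there at -0.46 in RM (adjusted p = 0.349) and -0.45 in RM-HS (adjusted p = 0.475). Slc6a6, which takes up the osmolyte taurine and is named outside the rule given below, was at -0.57 (adjusted p = 0.242) and -0.51 (adjusted p = 0.429). In Sham, Nfat5 was 1.31 higher in M than in C (adjusted p = 8.95e-10).

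Of 19 listed genes for the sodium pump and other sodium transport, 18 were measured and 17 tested. Averaged over areas, 0 rose and 1 fell in RM, 0 rose and 0 fell in HS and 2 rose and 0 fell in RM-HS, with medians of 0.08, -0.0039 and 0.17. The 1 of 17 in RM and 2 of 17 in RM-HS stand beside 8.3% and 6.83% of all genes, so that the counts do not set the list apart. Slc12a1, the sodium, potassium and chloride cotransporter of the thick ascending limb, fell by 0.68 in RM (-0.68 ± 0.19, adjusted p = 0.00711). Slc9a3r1, a scaffold of the sodium and proton exchanger, rose by 0.64 ± 0.18 (adjusted p = 0.0127), and Slc4a4, a sodium bicarbonate cotransporter, by 0.54 ± 0.18 (adjusted p = 0.0462) in RM-HS. In HS, Fxyd2, the gamma subunit of the sodium pump, was at -0.61 ± 0.18 (adjusted p = 0.258) and Slc12a1 at -0.52 ± 0.24 (adjusted p = 0.854). With single runs left out Fxyd2 lay between -0.95, where it was called (without HS run 3, adjusted p = 3.44e-07), and 0.32 (without Sham run 3), and Slc12a1 between -0.84, called without HS run 3 (adjusted p = 0.000568), and -0.20. In medulla 1 rose and 4 fell in RM, 0 rose and 1 fell in HS and 2 rose and 2 fell in RM-HS, beside 5.96%, 0.374% and 4.5% of all genes called. Apart from Slc12a1, these were Slc4a4 (0.97), Slc9a3 (-0.69), Stk39 (-0.65) and Fxyd2 (-0.59) in RM, Fxyd2 (-1.18) in HS and Slc4a4 (1.33), Slc9a3r1 (0.88) and Stk39 (-0.66) in RM-HS, all chosen for mention after their values were seen. With run means Slc4a4 and Slc9a3r1 in RM-HS were still called (adjusted p = 0.0481 and 0.0178) and the others were not (0.105 to 0.9996). Without single runs Slc4a4 in RM-HS kept its call, and each of the others lost it at least once. Slc12a1 was lower there in RM (-1.37 ± 0.25, adjusted p = 1.73e-05), with run means too (0.0166), and in RM-HS (-0.83 ± 0.25, adjusted p = 0.0322), where run means (0.443) or leaving out any RM-HS run or Sham run 2 or 3 ended the call (up to 0.678). Of the averaged values, Slc12a1 in RM lost its call with run means (0.0952) and without RM run 2 or Sham run 2 (-0.36, adjusted p = 0.476, without the Sham run). Slc4a4 lost its call with run means (0.334) and without any RM or RM-HS run or Sham run 1 or 2 (up to 0.379), and Slc9a3r1 without any RM-HS run or Sham run 1 or 2 (up to 0.201).

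**Figure D3:**
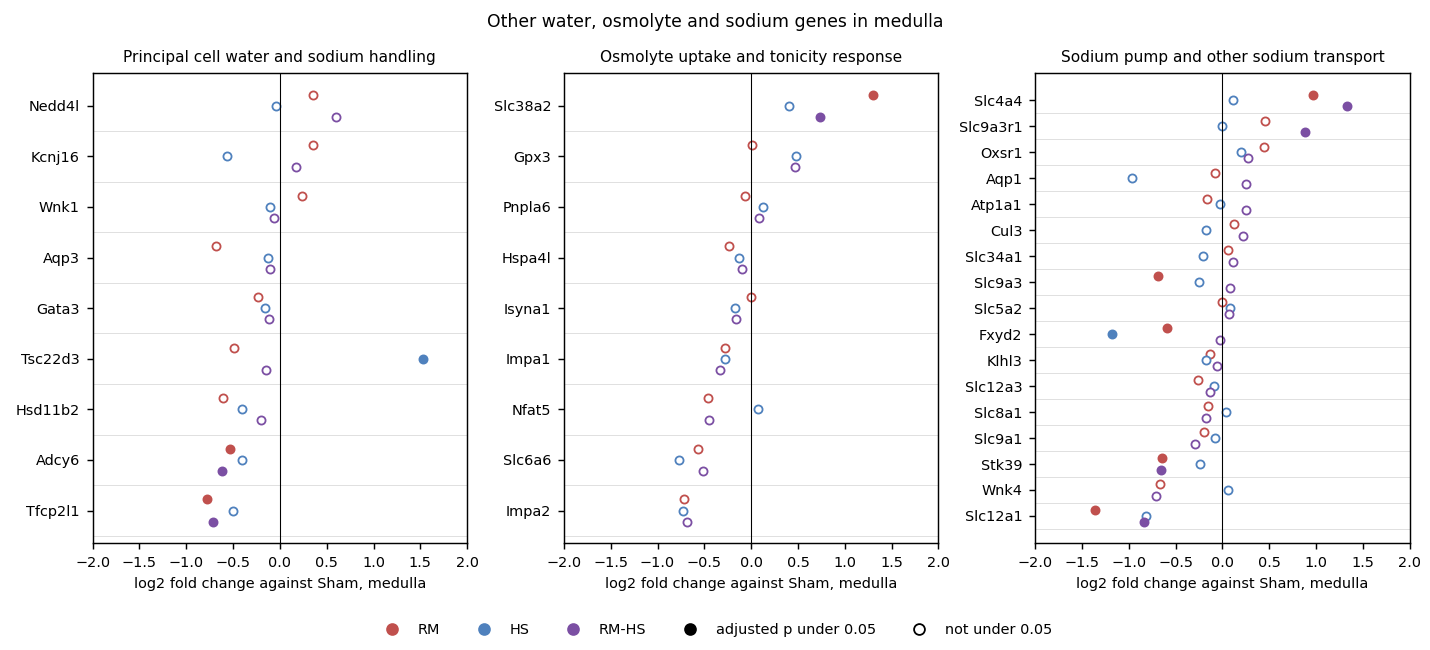
Log2 fold change against Sham in medulla (x axis) of the tested members of 3 gene lists for RM, HS and RM-HS, filled where the adjusted p was under 0.05. Slc38a2 at 1.30 in RM and Slc12a1 at -1.37 in RM mark the range of the called RM values shown here.

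Markers of cell types were summed in the same medullary ROIs, and not all of the lists summed are described. Of 9 principal cell markers, 4 were in the table (Aqp2, Aqp3, Hsd11b2 and Gata3), none of them at 0, and 1 had a mean at or under 2 times the negative probe. The summed signal of Aqp3, Hsd11b2 and Gata3, leaving out Aqp2 itself, was 138 to 196 (median 158) in RM and 156 to 281 (median 216) in HS. It was 187 to 249 (median 210) in RM-HS, against 149 to 298 (median 258) in Sham medulla. None of these 3 was called. Log2 differences of the 4 markers with Aqp2 ran from -1.50 to -0.24 in RM, with a median of -0.65 beside -0.07 over all genes. In RM-HS they ran from -0.91 to -0.11, with a median of -0.16 beside -0.0062. Aqp3, the basolateral water channel of the same cells, was at -0.69 ± 0.27 in RM (adjusted p = 0.166) and -0.11 in RM-HS. The summed signal of 6 thick ascending limb markers was 780 to 1265 in RM, 1127 to 1509 in HS and 1162 to 1573 in RM-HS, against 1377 to 3238 in Sham, and 3 of the 6 fell in RM (Slc12a1, Egf and Kcnj1), 1 in HS (Kcnj1) and 1 in RM-HS (Slc12a1), where 5.96%, 0.374% and 4.5% of all genes were called. Egf, one of them, differed by -1.02 ± 0.24 in RM (adjusted p = 0.00134, 0.0557 with run means and 0.0517 without RM run 2). For 3 macrophage markers the sums were 177 to 292 in RM, 131 to 193 in HS and 201 to 307 in RM-HS, against 144 to 219 in Sham, and 2 of the 3 (C1qc and Cd74) rose in RM-HS. With run means none of the calls of Kcnj1, C1qc and Cd74 held (adjusted p of 0.237 to 0.9996). For 2 thin limb markers the sums were 291 to 479 in RM, 305 to 418 in HS and 366 to 655 in RM-HS, against 332 to 683 in Sham. Of these, 1 fell in RM, beside 5.96% of all genes called, and its value with run means is not given. For 6 intercalated cell markers the median sums were 297 in RM, 271 in HS and 296 in RM-HS, against 280 in Sham. Of these 6, 4 had a mean at or under 2 times the negative probe. In the same order the medians were 147, 125, 146 and 137 for 2 distal convoluted and connecting tubule markers. They were 213, 189, 196 and 189 for 3 endothelium markers, and 302, 314, 331 and 337 for 7 proximal tubule markers. No tested marker of these lists was called there against Sham. The part of these cell types in the results for Aqp2, Scnn1a and Slc5a3 was not tested.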

How the data were processed

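The deposited table holds signal for 9271 genes and 1 negative probe in 132 ROIs, which the authors scaled to the upper quartile of each ROI (58.2 in all). Per the submitters' processing notes the builds named are GRCh38 and hg38, which are human. The sources used here give neither their role nor the software, so coordinates come from RefSeq alone. Whole reads were recovered from the smallest step between values of an ROI (100% whole within 0.0001 reads). Genes above 2 times the negative probe in 10% of ROIs or more were kept (8827 of 9271), and log2(value + 1) was fitted in limma 3.58.1 (R 4.3.3) with 16 means of group and area, a plate term, a random block for the well run (correlation 0.132) and a variance trend, over 131 ROIs. P-values are two-sided and were Benjamini-Hochberg adjusted over all 8827 genes, with a threshold of 0.05. A fold change on this scale understates the change of low genes. The plate term passed for 52 genes and for none of the members (adjusted p of 0.554 to 0.940). The fit was tested on simulated data.

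Well runs are stretches of neighbouring wells read from the titles, 3 per group. RM-HS run 3 is split, with its medulla wells before Sham run 1 and its other wells after it. Joining these parts into a run is an assumption. Whether a run is an animal is not stated. Alternatives were another pseudocount, filters, quantile normalization, subtraction of the negative probe, no plate term, single plates, run means, single areas, the ROI of plate A, a minimum of 50000 reads, edgeR 4.0.16 on recovered reads without the block, and each run left out. The genes named are the members, the 3 genes most like each member and called members of each list. Of each list, up to 4 called members with the lowest p per injury average were taken (2 genes where none was called). Of the leading cell markers, some of those of the cell types described are named. Outside this rule are Slc6a6, Kcnj1, Hsd11b2, Gata3 and the values said above to be chosen after they were seen. The members and lists were chosen with earlier results of these data known. Promoter windows are from RefSeq (GRCr8), where 8432 of 9271 symbols of the table were found.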

Additional observations from a re-analysis of the deposited data

Results flagged for a closer look

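Among 48 sets of ROIs (3 genes in 16 groups and areas), 5 held 1 ROI far from the others by Dixon's test, where chance gives about 1 in 20. In RM medulla 1 ROI of well run 2 was highest for both Aqp2 (179, the next at 128) and Scnn1a (143, the next at 118). Slc5a3 had 1 high ROI in RM cortex (405 in run 1, the next at 165), 1 in RM-HS medulla (1913 in run 2, the next at 1505) and 1 in Sham glomeruli (204 in run 3, the next at 65.4). The last of these held 17894 reads, the fewest of all ROIs, and 7 of Slc5a3.

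The difference from Sham varied between areas by the F test for Aqp2 in RM (adjusted p = 0.000174) and for Slc5a3 in RM (adjusted p = 0.000474), HS (adjusted p = 0.00922) and RM-HS (adjusted p = 5.22e-08). For Aqp2 in RM the area values were -0.30 in C, -0.78 in CMJ, -1.50 in M and 0.15 in G. For Slc5a3 in HS they were 0.36, 0.58, 0.52 and -0.72 in the same order.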

How the results depend on the processing

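All alternatives were recomputed for the 3 genes. Below, an injury named with an area or "on average" is set against Sham, and values in parentheses are log2 fold changes unless named as adjusted p. Slc5a3 stayed higher and called in RM and RM-HS medulla and on average, and Aqp2 stayed lower and called in RM medulla, under every alternative run that covers them. Sign changes listed here are of differences not called under the original setting. The cause of the changes was not tested. Without Sham run 3 the plate term could not be fitted and was dropped, so HS was then set against Sham of another plate. Depth limits glomeruli most, where members rest on 1 to 37 reads.

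A pseudocount of 5 added the calls of Aqp2 in M against C in RM-HS (0.58), and Scnn1a in RM-HS in M (0.53). A pseudocount of 5 turned the sign of Aqp2 in RM-HS against RM on average (0.0027). The filter of 50% of ROIs added the calls of Aqp2 in CMJ against C in Sham (-0.60), M against C in RM-HS (0.59), and Scnn1a in RM-HS in M (0.56). Quantile normalization added the calls of Aqp2 in CMJ against C in Sham (-1.06), RM in C (-0.82), RM in CMJ (-0.84), RM-HS in C (-0.93), RM-HS against HS on average (-1.01), RM-HS against HS in M (-1.39), M against C in HS (0.67), and Scnn1a in RM-HS in M (0.54). Quantile normalization turned the sign of Aqp2 in RM in G (-0.067), RM-HS against RM on average (0.061), and Scnn1a in RM-HS against RM in M (0.075). Quantile normalization ended the calls of Slc5a3 in HS (0.0578) in the test between areas, by adjusted p. Subtracting the negative probe ended the calls of Aqp2 in RM on average (-0.73), RM-HS on average (-0.95), RM-HS in CMJ (-1.44), RM-HS in M (-1.23), and Scnn1a in CMJ against C in Sham (-0.57), RM in M (0.71). Subtracting the negative probe added the calls of Aqp2 in RM-HS against HS on average (-1.87), and Scnn1a in RM in G (1.21), RM-HS in G (1.55), and Slc5a3 in RM-HS against HS on average (1.26). Subtracting the negative probe turned the sign of Scnn1a in HS in CMJ (0.00033), the interaction (-0.24). Dropping the plate term ended the calls of Scnn1a in RM-HS on average (0.34), RM in M (0.49). Dropping the plate term added the calls of Aqp2 in RM-HS against HS on average (-0.94), RM-HS against HS in M (-1.08), and Slc5a3 in RM-HS against HS on average (0.85). Dropping the plate term turned the sign of Scnn1a in RM in C (-0.0097), HS in CMJ (0.072), the interaction (-0.086). Plate C alone ended the calls of Scnn1a in CMJ against C in Sham (-0.28). Plate C alone added the calls of Aqp2 in RM in CMJ (-0.81), M against C in RM-HS (0.59), and Scnn1a in RM on average (0.29), RM-HS in G (0.61), RM-HS in M (0.54). Plate C alone turned the sign of Aqp2 in RM in G (-0.17), and Slc5a3 in G against C in Sham (-0.12), RM-HS in G (0.045). Plate E alone ended the calls of Aqp2 in M against C in Sham (0.85), and Scnn1a in CMJ against C in Sham (-0.71), G against C in Sham (-0.77), and Slc5a3 in CMJ against C in Sham (1.20). Plate E alone turned the sign of Aqp2 in HS in M (-0.13), and Scnn1a in HS in CMJ (0.10), HS in G (-0.094). Plate E alone ended the calls of Slc5a3 in HS (0.232) in the test between areas, by adjusted p. Taking means of well runs ended the calls of Aqp2 in RM on average (-0.60), RM-HS on average (-0.60), M against C in Sham (0.98), RM-HS in CMJ (-0.83), RM-HS in M (-0.91), and Scnn1a in RM-HS on average (0.43), CMJ against C in Sham (-0.42), RM in M (0.58), M against C in RM-HS (0.56), and Slc5a3 in CMJ against C in Sham (0.96), RM in C (1.39), RM in CMJ (1.34), RM-HS in C (1.25), RM-HS against HS in M (1.82). Taking means of well runs turned the sign of Aqp2 in HS in G (-0.019), and Scnn1a in HS in G (-0.0027), and Slc5a3 in RM-HS in G (0.020). Taking means of well runs ended the calls of Aqp2 in RM (0.123), and Slc5a3 in RM (0.359), HS (0.446) in the test between areas, by adjusted p. Leaving out ROIs under 50000 reads ended the calls of Aqp2 in RM-HS on average (-0.61), RM-HS in CMJ (-0.75), RM-HS in M (-0.80). Leaving out ROIs under 50000 reads added the calls of Aqp2 in CMJ against C in Sham (-0.60), M against C in RM-HS (0.59), and Scnn1a in RM-HS in G (0.61), RM-HS in M (0.53), and Slc5a3 in HS in G (-1.71), RM-HS against HS on average (1.27). Leaving out ROIs under 50000 reads turned the sign of Aqp2 in HS on average (-0.11), RM in G (-0.17), HS in G (-0.79), HS in M (-0.078), the interaction (0.10), and Slc5a3 in G against C in Sham (-0.011), RM-HS in G (0.041), the interaction (0.12). edgeR on recovered reads ended the calls of Scnn1a in G against C in Sham (-0.57). edgeR on recovered reads added the calls of Aqp2 in CMJ against C in Sham (-0.61), RM in CMJ (-0.67), M against C in RM-HS (0.56), and Scnn1a in RM on average (0.31), M against C in Sham (0.27), RM in CMJ (0.34), RM-HS in CMJ (0.43), RM-HS in M (0.53), RM-HS against HS in M (0.49), and Slc5a3 in HS in CMJ (1.08), RM-HS against HS on average (0.91). edgeR on recovered reads turned the sign of Aqp2 in RM in G (-0.085), HS in G (-0.28), HS in M (-0.32), and Scnn1a in HS in CMJ (0.026), M against C in HS (-0.075), the interaction (-0.050). Fitting each area alone added the calls of Aqp2 in RM in CMJ (-0.82), and Scnn1a in RM-HS in M (0.54). Fitting each area alone turned the sign of Aqp2 in RM in G (-0.18), HS in M (-0.37), and Scnn1a in HS in CMJ (0.10), HS in G (-0.091), and Slc5a3 in RM-HS in G (0.052).

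Counts of called list members moved in part. The share of all genes called under each of these settings is not given here. Whether the lists moved more than all genes was therefore not shown. Quantile normalization made the called members 4 for principal cell genes in RM, 2 for osmolyte genes in RM, 5 for sodium transport genes in RM, 1 for sodium transport genes in HS, 6 for sodium transport genes in RM-HS. Dropping the plate term made the called members 2 for principal cell genes in RM, 4 for osmolyte genes in HS, 1 for sodium transport genes in HS, 1 for sodium transport genes in RM-HS. Taking means of well runs made the called members 0 for principal cell genes in RM, 1 for principal cell genes in RM-HS, 0 for sodium transport genes in RM, 1 for sodium transport genes in RM-HS.

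With each of the 12 well runs left out in turn, these results changed a call or a sign at least once. The log2 fold changes of Aqp2 lay in these ranges, each after its comparison: RM on average -0.77 to -0.45, HS on average -0.029 to 0.40, RM-HS on average -0.77 to -0.45, M against C in Sham 0.76 to 1.14, RM in CMJ -0.89 to -0.65, RM in G -0.17 to 0.47, HS in G -0.20 to 0.37, HS in M -0.15 to 0.31, RM-HS in CMJ -1.003 to -0.68, RM-HS in M -1.33 to -0.63, RM-HS against RM on average -0.11 to 0.11, RM-HS against HS on average -1.03 to -0.59, RM-HS against HS in M -1.20 to -0.81, M against C in RM -0.56 to 0.079, M against C in HS 0.24 to 0.87, M against C in RM-HS 0.31 to 0.77, the interaction -0.41 to 0.024. In the test between areas the adjusted p of Aqp2 was 0.0364 to 0.696 in RM-HS. The log2 fold changes of Scnn1a lay in these ranges, each after its comparison: RM on average 0.21 to 0.37, RM-HS on average 0.35 to 0.51, CMJ against C in Sham -0.62 to -0.28, RM in G -0.056 to 0.45, RM in M 0.54 to 0.63, HS in CMJ -0.13 to 0.059, HS in G -0.16 to 0.38, HS in M -0.012 to 0.28, RM-HS in G 0.25 to 0.76, RM-HS in M 0.48 to 0.60, RM-HS against RM in M -0.092 to 0.024, M against C in HS -0.068 to 0.12, M against C in RM-HS 0.43 to 0.77, the interaction -0.17 to 0.13. The log2 fold changes of Slc5a3 lay in these ranges, each after its comparison: G against C in Sham -0.12 to 0.25, RM in CMJ 1.003 to 1.70, RM in G -0.042 to 0.34, HS in CMJ -0.040 to 1.03, RM-HS in C 1.10 to 1.53, RM-HS in G -0.28 to 0.093, RM-HS against RM on average -0.039 to 0.23, RM-HS against HS on average 0.79 to 1.41, RM-HS against HS in M 1.43 to 2.05, the interaction -0.30 to 0.086. In the test between areas the adjusted p of Slc5a3 was 5.66e-05 to 0.542 in HS. Called members of principal cell water and sodium handling were 0 to 4 in RM, 1 to 3 in HS, 0 to 3 in RM-HS. Called members of osmolyte uptake and tonicity response were 1 to 2 in RM, 0 to 5 in HS, 1 to 4 in RM-HS. Called members of sodium pump and other sodium transport were 0 to 6 in RM, 0 to 3 in HS, 0 to 8 in RM-HS. For these counts too, the share of all genes called with each run left out is not given. 

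No paired analysis was possible because the replicate and run numbers of different groups were given in order and do not pair ROIs.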
